A study of Bubalus bubalis with 6 samples.

Results

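The genes described here are 10 regulators of the G1 phase of the cell cycle, the D-type cyclins CCND1, CCND2 and CCND3, the E-type cyclin CCNE1, the cyclin-dependent kinases CDK2, CDK4 and CDK6, and the CIP/KIP inhibitors CDKN1A, CDKN1B and CDKN1C. They were chosen by symbol from the 24616 genes of the deposited gene table, where each is listed once. All but 1 could be tested, since the row with the symbol CDK4 had no counts. Polyadenylated RNA was sequenced from primary muscle stem cells (MuSCs) of fetal water buffalo longissimus muscle, in 3 samples of proliferating cells kept in growth medium with fetal bovine serum (GM samples) and 3 samples of cells moved at near confluence to differentiation medium with a low amount of horse serum (DM samples). No transgene, drug or mutation distinguishes the groups. The study describes several days in differentiation medium, while the labels give no time point for any sample. They also give no animal and no statement that each sample was a culture of its own. The p-values therefore set the difference between the groups against the spread between these samples, which may be technical. Medium, serum, cell density and time in culture change together between the groups and cannot be told apart.

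In G1, D-type cyclins rise with growth factor signaling and activate CDK4 and CDK6, which begin to phosphorylate the retinoblastoma protein and release E2F transcription factors. E2F factors then raise cyclin E, which activates CDK2 and carries the cell into S phase. The CIP/KIP proteins p21 (CDKN1A), p27 (CDKN1B) and p57 (CDKN1C) bind cyclin-CDK complexes and inhibit CDK2 in particular. Myoblasts leave the cell cycle before they fuse, and p21 and p57 are known for their part in that exit.

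Gene counts ranged from 36657735 to 40305237 per GM sample and from 35615864 to 38177614 per DM sample. Levels of one gene are given as CPM, its counts relative to a library size that TMM normalization has adjusted. Different genes are compared in RPKM as the authors deposited it, which divides by gene length and by the library total without the TMM adjustment. The TMM factors were 1.03 to 1.04 in GM and 0.948 to 0.983 in DM samples. Values per sample follow the order of replicates 1, 2 and 3, and means are shown ± SD with n = 3. DM replicate 3 stood apart from the other DM samples on the second principal component, which held 8.79% of the variance of all tested genes, and its count differences from them were larger than theirs from each other (chi-square per degree of freedom of 40.5 and 41.4, against 11.7). Of 12 myogenic marker genes 11 were listed by symbol and tested (MYMK was not listed), and their summed level was between 2896 and 3444 CPM in GM samples and between 6011 and 8183 CPM in DM samples. Of the 11, 6 were called higher in DM samples (MYOG, ACTA1, MYH3, MYH8, CKM and TNNT3, with MYH8, the perinatal myosin heavy chain gene, at a log2 fold change of 7.19) and 1 was called lower, MYF5. DES, the muscle intermediate filament gene, had 2273.6 ± 103.3 CPM in GM and 2050.8 ± 323.1 CPM in DM samples, and was not called. MYF5, a myogenic factor of muscle precursors, fell from 143.1 ± 6.38 to 22.0 ± 3.34 CPM (log2 change -2.70), and PAX7, the satellite cell factor, had 18.5 ± 0.17 and 9.77 ± 3.25 CPM and was not called. Fibroblast marker genes were also abundant, with a summed level of 35442 to 36189 CPM in GM and 97677 to 123589 CPM in DM samples. Of these genes, 6 of the 8 tested were called higher in DM samples and none lower. These calls, and those of the myogenic markers, use the thresholds given below. By them 15.0% of all tested genes were called higher and 10.3% lower. The untested fibroblast marker, TCF21, had fewer than 10 counts over the 6 samples, with more than 3 in a GM sample and none in DM samples. Smooth muscle and pericyte markers summed to 1223 to 1413 CPM in GM and 1526 to 1875 CPM in DM samples. Adipocyte (6.8 to 8.6 CPM in all samples), endothelial (4.0 to 6.1 CPM) and leukocyte markers (6.2 to 13.5 CPM) were low, and LEP, PTPRC and CD3E had at most 3 counts in any sample. The part of these other markers in the results below was not tested, and in bulk samples fewer cells of a type and less RNA per cell cannot be told apart.

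All 6 tested cyclins and CDKs had lower levels in DM samples, and all 3 inhibitors had higher levels. A gene was called at an absolute log2 fold change (DM over GM) above 1 and an adjusted p-value under 0.05 from edgeR, where the adjustment ran over all 15576 tested genes. CCND1, CCNE1 and CDK2 were called lower, CDKN1A and CDKN1C were called higher, and CCND2, CCND3, CDK6 and CDKN1B were not called because their change was smaller than the minimum. These 5 called of 9 tested genes stand beside 25.3% of all tested genes, with 15.0% called higher and 10.3% called lower. Each of the 9 genes had an adjusted p-value under 0.05 when no minimum change was asked for, 3 of them higher and 6 lower in DM samples. This held for 63.0% of all tested genes, 31.6% higher and 31.4% lower. In none of the 9 did GM and DM samples overlap, as was so for 68.8% of all tested genes (34.5% with DM samples above, 34.3% below). The median log2 fold change of the 9 genes was -0.80, against 0.03 over all tested genes.

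**Figure D1:**
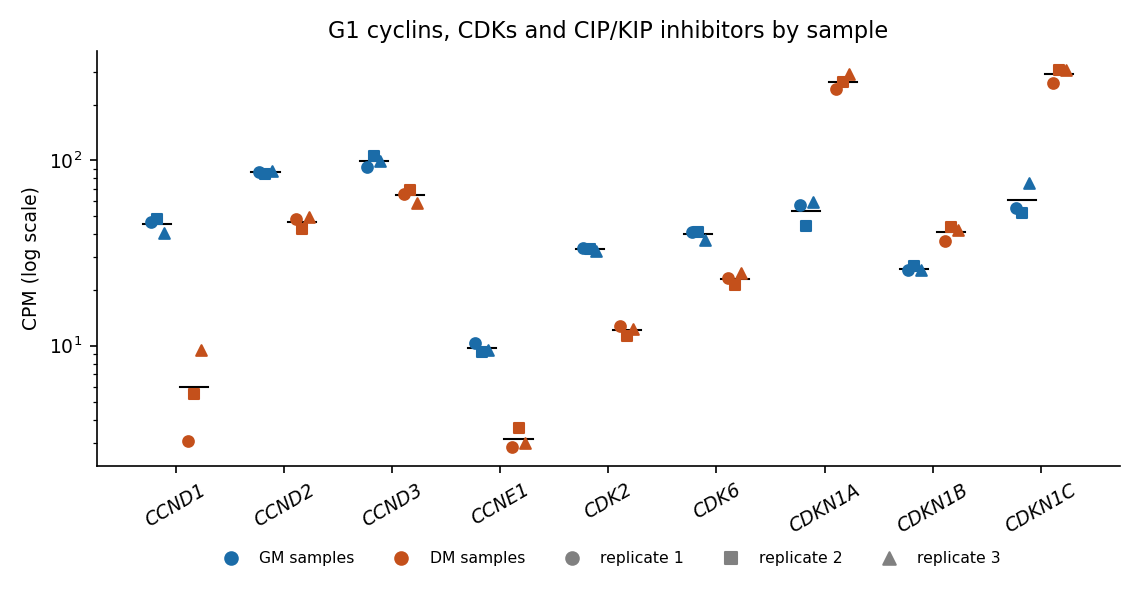
Level of each tested gene in every sample, in CPM on a log scale, with GM samples in blue, DM samples in orange, a marker shape per replicate number and a line at each group mean. GM and DM samples are apart for all 9 genes, and the DM samples of CCND1 spread most, from 3.05 to 9.49 CPM.

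Cyclin D1 is the D-type cyclin most closely tied to mitogen signaling. CCND1 (ENSBTAG00000017514, chromosome 29, 47544380 to 47553820, in the coordinates of the deposited table, which names no genome build) had 46.7, 48.2 and 40.8 CPM in the GM samples, against 3.05, 5.49 and 9.49 CPM in the DM samples. The highest DM sample was thus well below the lowest GM sample. CCND1 fell by 2.90 on the log2 scale (standard error, SE, 0.28, adjusted p = 6.47e-06 by edgeR), the largest change of the 9 genes and larger in size than that of 94.4% of all tested genes. The DM samples differed among themselves more than for any other of these genes, with 103, 201 and 351 counts and a coefficient of variation of 54.1%, against 6.37 to 12.8% for the other 8 genes in DM samples and 8.67% for CCND1 in GM samples. DM replicate 3, the sample that stood apart across all genes, was the highest. Without it the log2 fold change was -3.39 (SE 0.14), and without DM replicate 1, the lowest, it was -2.58 (SE 0.21).

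Cyclin D2, which serves the same kinases and often replaces cyclin D1 in other cell types, was lower in DM samples but was not called. CCND2 (ENSBTAG00000016649, chromosome 5, 106253907 to 106276819) had 86.9, 84.7 and 87.2 CPM in the GM samples, against 48.2, 42.4 and 49.4 CPM in the DM samples. The GM samples nearly coincided. Its log2 fold change was -0.89 (SE 0.073, adjusted p = 1.88e-06 by edgeR), a difference larger than the spread between replicates and smaller than the minimum for a call.

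Cyclin D3 is known from mouse myoblast lines as the D-type cyclin that accumulates in differentiating cells. CCND3 (ENSBTAG00000010106, chromosome 23, 15707556 to 15714372) had 92.4, 105.7 and 99.5 CPM in the GM samples, against 66.1, 68.8 and 59.0 CPM in the DM samples. Here too every DM sample was below every GM sample. The log2 fold change of -0.62 (SE 0.079, adjusted p = 5.04e-05 by edgeR) was below the minimum for a call.

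Per length, the summed level of the 3 D-type cyclins was 183.7 ± 3.54 RPKM in GM samples and 82.9 ± 2.68 RPKM in DM samples. CCND1 made up 22.8, 22.7 and 20.01% of this sum in the GM samples, against 3.06, 5.68 and 9.17% in the DM samples. CCND2 held the largest share in both groups, 49.99 ± 1.81% in GM samples and 55.9 ± 2.97% in DM samples. The share of CCND3 was 28.2 ± 1.495% in GM samples and 38.1 ± 4.21% in DM samples. Neither CCND2 nor CCND3 had a higher level in DM samples, so their larger shares accompany a smaller total. The order of CCND2 and CCND3 rests on the length of the gene models, 972 bases for CCND2 and 1982 for CCND3. In counts not divided by length CCND3 was the larger, with 43.0% against 37.4% in GM samples and 55.1% against 39.8% in DM samples. The ratio of CCND2 to CCND1 in RPKM was between 2.11 and 2.56 in GM samples and was 18.9, 9.25 and 6.24 in DM replicates 1, 2 and 3, while the ratio of CCND3 to CCND2 overlapped between the groups, at 0.56 ± 0.045 and 0.69 ± 0.11.

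Cyclin E1 is the activator of CDK2 at the start of S phase and a target of E2F factors. CCNE1 (ENSBTAG00000004735, chromosome 18, 40565286 to 40574820) had 10.3, 9.23 and 9.52 CPM in the GM samples, against 2.84, 3.61 and 3.00 CPM in the DM samples. Every DM sample was well below every GM sample. CCNE1 fell by 1.62 on the log2 scale (SE 0.15, adjusted p = 3.90e-06 by edgeR).

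CDK2 is the kinase that cyclin E and cyclin A activate. CDK2 (ENSBTAG00000004021, chromosome 5, 57664374 to 57669057) had 33.6, 33.4 and 32.6 CPM in the GM samples, against 12.8, 11.3 and 12.4 CPM in the DM samples. The spread within either group was small beside the difference between them. CDK2 fell by 1.45 on the log2 scale (SE 0.080, adjusted p = 1.06e-07 by edgeR). The ratio of CCNE1 to CDK2 in RPKM overlapped between the groups, with 0.34 ± 0.019 in GM samples and 0.31 ± 0.060 in DM samples.

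CDK6 is one of the pair of kinases that D-type cyclins activate. CDK6 (ENSBTAG00000044023, chromosome 4, 9792303 to 10039520) had 41.2, 41.2 and 37.3 CPM in the GM samples, against 23.1, 21.2 and 24.5 CPM in the DM samples. Its log2 fold change was -0.80 (SE 0.081, adjusted p = 9.39e-06 by edgeR), short of the minimum for a call. The ratio of CDK6 to CDK2 in RPKM was 1.45 ± 0.061 in GM samples and 2.27 ± 0.11 in DM samples, without overlap.

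CDK4 is the other kinase of the D-type cyclins and could not be measured from the row that carries its symbol. That row (ENSBTAG00000046091, chromosome 16, 66897684 to 66898319, with a model length of 606 bases) had 0 counts in all 6 samples, which allows up to 3 counts, or 0.0721 to 0.0888 CPM, in a sample. In RefSeq's annotation of the buffalo assembly NDDB_SH_1 the gene CDK4 lies between TSPAN31 and MARCHF9, the current symbol of MARCH9. In the deposited table the row between MARCH9 and TSPAN31 on chromosome 5, 201 bases from TSPAN31, is ENSBTAG00000007160, which the table pairs with no symbol and which was not counted among the 10 genes. It had 151.8, 171.5 and 160.2 CPM in the GM samples, against 110.7, 108.3 and 121.2 CPM in the DM samples, and its log2 fold change was -0.51 (SE 0.070, adjusted p = 9.64e-05 by edgeR). Whether this row holds the kinase is not given in the files, and no level of CDK4 is reported.

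CDKN1A encodes p21, an inhibitor that MyoD induces in myoblasts. CDKN1A (ENSBTAG00000008353, chromosome 23, 10560499 to 10568780) had 57.1, 44.0 and 59.7 CPM in the GM samples, against 241.4, 264.0 and 292.5 CPM in the DM samples. The lowest DM sample was several times the highest GM sample. CDKN1A rose by a log2 fold change of 2.31 (SE 0.12, adjusted p = 5.57e-08 by edgeR), larger in size than that of 91.2% of all tested genes.

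CDKN1C encodes p57, which is expressed from the maternal allele in mammals in which its imprinting has been studied. CDKN1C (ENSBTAG00000031184, chromosome 29, 49368787 to 49370785) had 55.5, 51.7 and 75.0 CPM in the GM samples, against 261.9, 308.4 and 308.2 CPM in the DM samples. GM replicate 3 was the highest of its group and still far below each DM sample. CDKN1C rose by a log2 fold change of 2.27 (SE 0.13, adjusted p = 1.45e-07 by edgeR). The ratio of CDKN1C to CDKN1A in RPKM was 2.26 ± 0.29 in GM and 2.20 ± 0.12 in DM samples, and the groups overlapped.

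CDKN1B encodes p27, which accumulates in resting cells largely through protein stability. CDKN1B (ENSBTAG00000018254, chromosome 5, 97577140 to 97582322) had 25.6, 26.8 and 25.5 CPM in the GM samples, against 36.6, 43.9 and 42.3 CPM in the DM samples. Every DM sample was above every GM sample. The log2 fold change of 0.66 (SE 0.083, adjusted p = 4.71e-05 by edgeR) was below the minimum for a call. The protein was not measured in these data.

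**Figure D2:**
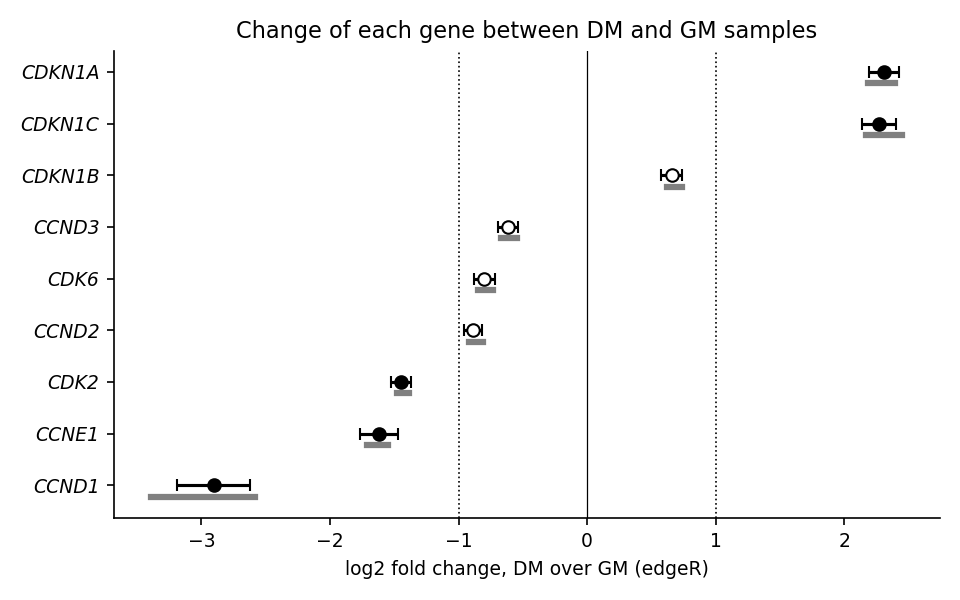
Log2 fold change of each tested gene, DM over GM, with its standard error from edgeR as the error bar, filled points for called genes, a grey bar for the range over fits that omit 1 sample and dotted lines at -1 and 1. The 5 called genes lie outside the dotted lines with all their grey bars, and the bar of CCND1 is the widest, from -3.39 to -2.58.

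In RPKM the summed level of the CIP/KIP inhibitors was 84.7, 75.8 and 102.7 in the GM samples, against 322.1, 384.9 and 390.5 in the DM samples. CDKN1C was the largest part in both groups, with 60.4 ± 3.30% in GM samples and 65.7 ± 0.99% in DM samples. CDKN1B went from 12.6 ± 2.19% to 4.39 ± 0.15% of the sum although its own level was higher in DM samples. The share of CDKN1A in RPKM overlapped between the groups. The lead of CDKN1C over CDKN1A depends on the length of the gene models, 1179 bases for CDKN1C and 2352 for CDKN1A. In counts not divided by length CDKN1C held 43.0% against 38.2% in GM samples and 48.8% against 44.3% in DM samples. In GM replicate 1 CDKN1A had more counts than CDKN1C, 2370 against 2301. In RPKM, the sum of the inhibitors divided by the sum of the D-type cyclins was 0.46, 0.40 and 0.57 in the GM samples. It was 3.97, 4.72 and 4.54 in the DM samples. The ratio of CDKN1A to CDK2 was 0.94 ± 0.15 in GM samples and 12.8 ± 1.57 in DM samples. These sums and ratios are of RNA levels and are given as a description, with no test.

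**Figure D3:**
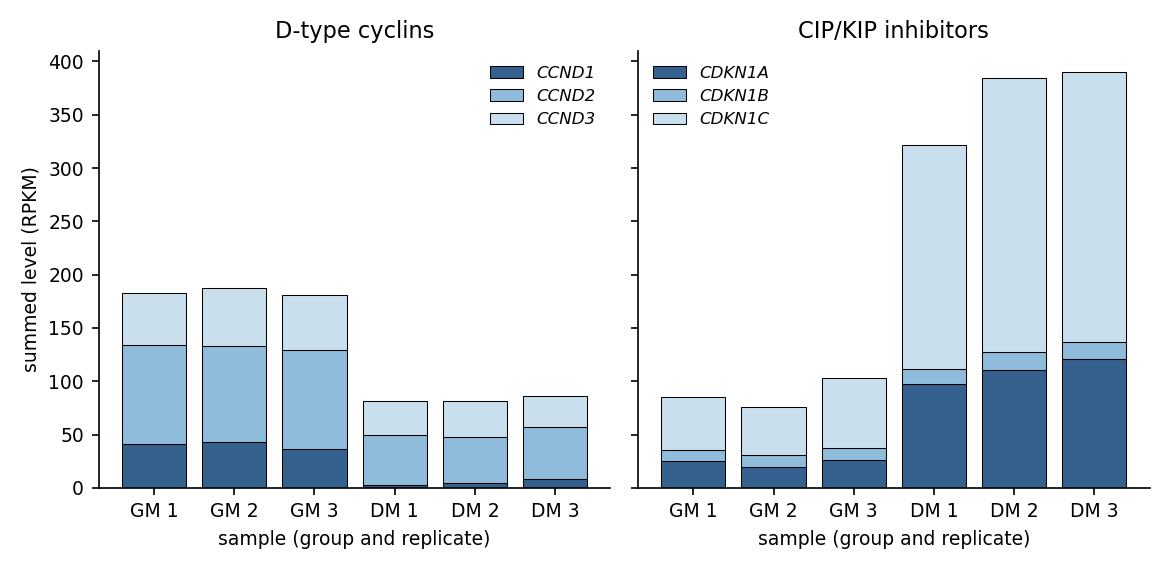
Summed level in RPKM of the D-type cyclins (left) and of the CIP/KIP inhibitors (right) in each sample, stacked by gene, on a shared axis from 0. The cyclin bars are 180.9 to 187.7 RPKM high in GM and 81.1 to 86.0 RPKM in DM samples, while the inhibitor bars are 75.8 to 102.7 RPKM in GM and 322.1 to 390.5 RPKM in DM samples.

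The order of the genes by RPKM differed between the groups. In GM samples CCND2 was highest (91.8 ± 1.60 RPKM), followed by CDKN1C (53.3 ± 10.99), CCND3 (51.8 ± 3.35), CCND1 (40.1 ± 3.47), CDK6 (36.3 ± 2.06), CDK2 (25.1 ± 0.41), CDKN1A (23.6 ± 3.73), CDKN1B (10.9 ± 0.28) and CCNE1 (8.66 ± 0.54). The ranges of the 3 samples overlapped for CDKN1C and CCND3, for CCND1 and CDK6, and for CDK2 and CDKN1A, so these neighbours are not told apart. In DM samples CDKN1C was highest (240.4 ± 25.8 RPKM), followed by CDKN1A (109.4 ± 11.6), CCND2 (46.3 ± 3.26), CCND3 (31.5 ± 2.64), CDK6 (19.5 ± 1.30), CDKN1B (16.0 ± 1.77), CDK2 (8.59 ± 0.41), CCND1 (4.998 ± 2.72) and CCNE1 (2.63 ± 0.38). Only CCND1 and CCNE1 overlapped there. Each level depends on the model length in the annotation, which may leave out untranslated parts of a transcript.

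Several of the genes share a chromosome. CCND1 and CDKN1C lie 1.81 Mb apart on chromosome 29, and CDKN1A and CCND3 lie 5.14 Mb apart on chromosome 23, with one member of each pair lower and the other higher in DM samples. On chromosome 5, CDK2 and CCND2 were lower and CDKN1B, which lies between them, was higher. No other listed gene overlaps the interval of any of the 10 genes, so reads of an overlapping or antisense gene in the table do not enter these counts. The mRNA table lists 1 transcript for each gene, with the same counts as the gene in all 60 values compared. It is therefore no second measurement. Its own fit called the same 5 genes, beside 25.6% of all 16352 tested mRNAs (15.5% higher and 10.1% lower, and 64.6% with no minimum change), with a log2 fold change of -2.92 for CCND1, 2.29 for CDKN1A and 2.25 for CDKN1C.

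All but 1 of the 7 other cell cycle cyclins were called lower in DM samples and none was called higher. Apart from the E-type cyclin CCNE2, they are A-type and B-type cyclins and CCNF. The median log2 fold change of the 7 genes was -2.02. Of all tested genes 15.0% were called higher and 10.3% lower, which are the shares to set beside this list and those below. CCNB1, the mitotic cyclin B1, fell from 106.3 ± 0.86 to 20.4 ± 3.40 CPM, and CCNA2, the S phase cyclin that also activates CDK2, fell from 176.5 ± 7.17 to 35.8 ± 6.34 CPM. CCNE2, the other E-type cyclin, fell from 11.4 ± 1.57 to 4.40 ± 0.58 CPM (log2 change -1.37, SE 0.15, adjusted p = 2.02e-05 by edgeR). The gene not called, CCNA1, had at most 8 counts in any sample.

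Among 10 tested CDKs and regulators of CDK activity outside the set, 8 were called lower and none higher, with a median of -1.73. CKS2, a small subunit bound to CDKs, fell by 2.15 on the log2 scale, and CDC25C, a phosphatase that activates CDK1, fell by 2.05. CDK1, the mitotic kinase, fell from 59.4 ± 2.40 to 17.2 ± 4.52 CPM. The 2 not called were CDK7, the CDK-activating kinase (13.2 ± 0.52 and 14.5 ± 1.15 CPM), and its assembly factor MNAT1 (24.1 ± 2.30 and 16.7 ± 0.94 CPM). CDK3 and CCNH were not listed by symbol.

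The INK4 inhibitors bind CDK4 and CDK6, and 2 genes of this list were called higher and 2 lower. CDKN2B (p15) rose from 12.4 ± 1.01 to 40.6 ± 6.08 CPM (log2 change 1.71, SE 0.11, adjusted p = 4.00e-07 by edgeR). CDKN2A, the p16 and ARF locus, rose from 2.15 ± 0.066 to 5.38 ± 1.40 CPM. CDKN2C (p18) fell from 16.4 ± 1.15 to 5.90 ± 1.03 CPM, and CDKN3, a phosphatase that acts on CDK2, was also called lower, by 1.06 on the log2 scale. CDKN2D (p19) was not called, with 9.87 ± 0.80 CPM in GM and 7.19 ± 0.78 CPM in DM samples. The median of the list was -0.46.

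Pocket proteins and E2F factors, the substrates and outputs of the G1 kinases, comprised 13 tested genes, of which 5 were called lower and 1 higher, with a median of -0.86. RBL2, which encodes the pocket protein p130 known from resting cells, rose from 27.7 ± 2.05 to 57.3 ± 2.95 CPM. RBL1, which encodes p107, had 32.6 ± 0.75 and 18.0 ± 1.32 CPM and RB1 had 17.7 ± 2.16 and 15.8 ± 1.77 CPM in GM and DM samples, and neither was called. E2F7 fell by 2.48 and E2F1 by 2.19 on the log2 scale, and E2F2, E2F4 and E2F8 were also called lower. The log2 fold changes of RBL2 (1.05) and E2F4 (-1.02) lie close to the minimum for a call.

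Of 13 tested genes for the turnover of G1 proteins, 1 was called lower and 1 higher, with a median of -0.17. The share called, 15.4%, was below the 25.3% of all tested genes. DTL, the receptor of a ubiquitin ligase that targets p21, fell from 44.9 ± 0.89 to 10.9 ± 0.63 CPM, and USP28, a deubiquitinase known to act on MYC, rose from 32.2 ± 2.18 to 77.6 ± 10.3 CPM. SKP2, RBX1 and GSK3B were not listed by symbol. The row with the symbol CUL1 had 0 counts in all 6 samples, and whether reads of that gene fall in another row was not tested.

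Of 15 transcription regulators known to act on D cyclin or CDKN1 genes, 6 were called higher and 1 lower, with a median of 0.21. FOSL1, an AP-1 subunit, fell from 57.1 ± 5.05 to 8.29 ± 1.16 CPM, and FOS, another AP-1 subunit, rose from 11.3 ± 2.45 to 54.0 ± 4.72 CPM. The other genes called higher were FOXO1, FOXO3 and FOXO4, which activate CDKN1B, KLF4, which activates CDKN1A, and the myogenic factor MYOG, with log2 fold changes of 1.15, 1.64, 1.21, 1.55 and 1.66. MYC had 160.4 ± 11.9 and 89.8 ± 9.67 CPM and MYOD1 had 32.5 ± 3.10 and 60.5 ± 18.8 CPM in GM and DM samples, and neither was called.

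**Figure D4:**
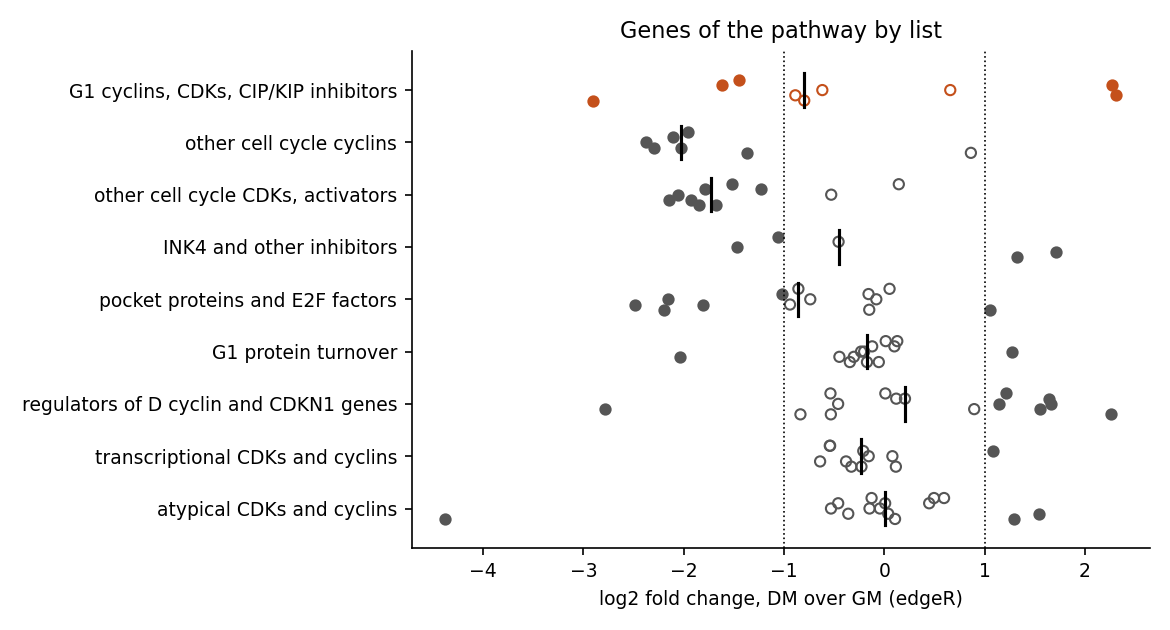
Log2 fold change, DM over GM, of each tested gene in the 10-gene set (orange) and in 8 lists of related genes (grey), with filled points for called genes, a black line at each list's median and dotted lines at -1 and 1. The medians of other cyclins (-2.02) and other cell cycle CDKs (-1.73) lie to the left of the median of the set (-0.80). The set includes the CIP/KIP inhibitors, which were higher in DM samples and are absent from those lists.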

How the data were processed

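PolyA-Seq was carried out by the authors on 3 GM and 3 DM samples. According to the study, reads were aligned with HISAT2 to a buffalo genome. The deposited tables instead carry cattle Ensembl identifiers without a build, and the submitters' processing notes name Bowtie 0.12.2, mm8 and mm9. The build behind the coordinates is therefore not given in the sources used here, nor is the strand setting. The authors deposited raw counts per gene and per mRNA transcript without normalization. From these counts and the length column the authors derived the deposited RPKM values. The authors' own fold changes and p-values for selected features were not used, nor was the ncRNA table. No sequences are shown.

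Counts of genes with at least 10 counts over the 6 samples were tested with edgeR 4.0.16 (glmQLFit, glmQLFTest, TMM) in R 4.3.3, with Benjamini-Hochberg adjustment over all 15576 genes and no covariate. Standard errors were taken from the F statistic. The pipeline was tested on simulated data. Detection limits of 3 counts cover counting error only. Figures were drawn in matplotlib 3.10.9 under Python 3.11.15. Alternatives were DESeq2 1.42.0, library size alone, DESeq2's size factors, no filter, filterByExpr, a filter that kept genes reaching an RPKM of 1 in over 50% of samples (the RPKM rule), calls without a fold minimum, calls tested against a 2-fold change, a replicate block, the mRNA table, limma 3.58.1 on log2(RPKM + 0.1), shares from counts, and leaving out 1 sample at a time.

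The 10 genes and all lists were chosen with earlier results of these data known. All 10 were named, with the 2 called genes of largest change in each list of related genes and the partners CDKN2A, CDKN2B, CDKN2C, CDKN2D, CCNE2, CCNA2, CDK1, RB1, RBL1 and RBL2. Other genes of the lists, and ENSBTAG00000007160, were named after their values were seen. A result for 1 regulator is not reported here.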

Additional observations from a re-analysis of the deposited data

How the results depend on the processing

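For the 9 tested genes, all 135 values from the alternatives to the gene fit kept the direction and the side of the threshold, with DESeq2, other normalizations and filters, a replicate block, limma on log2(RPKM + 0.1), the mRNA table and each sample left out. The genes called among the 9 stayed at 5 to 5 whichever sample was omitted, for the gene and the mRNA table, and 9 in either table with no minimum fold change, since that setting removes the fold requirement. In the mRNA table with library size alone they numbered 6, as CCND2 then had a log2 fold change of -1.06. That normalization moved the median of all tested mRNAs from 0.03 to -0.12 and the split of called mRNAs from 2531 higher and 1653 lower to 2169 and 2140. Over all genes, 3936 were called, 9813 with no minimum fold change, 2293 when tested against a 2-fold change and 2197 under the RPKM rule, and 3647 to 3995 with each sample left out. With the replicate block 3837 genes were called, 5 of the 9 among them. GM and DM samples of equal replicate number shared no deviation from their group means (correlation between -0.022 and -0.0076). Whether they came from the same culture or animal is not given and cannot be told from these correlations. The cause of the remaining moves was not tested. Shares from counts not divided by length differed from those in RPKM by more than 1 SD for all genes except CCND1 in DM samples. Depth limits CCNE1 and CCND1 in DM samples most, at 96 to 351 counts.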

Other observations

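Cyclins and CDKs that act outside the G1 machinery were compared as lists in the same fit. Of 11 transcriptional CDKs and cyclins, which serve RNA polymerase II and the Mediator complex, 1 was called higher and none lower, and the median log2 fold change was -0.23. The share called was 9.09%, against 25.3% of all tested genes. The gene called was CDK19, a Mediator kinase, which rose from 6.71 ± 0.39 to 14.3 ± 2.39 CPM.

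Among 15 tested atypical CDKs and cyclins, 2 were called higher and 1 lower, with a median of 0.01. The share called was 20%, against 25.3% of all tested genes. CCNG1, which encodes cyclin G1, rose from 134.7 ± 4.99 to 329.7 ± 24.8 CPM (log2 change 1.29, SE 0.070, adjusted p = 9.12e-08 by edgeR). CCNG2, a FOXO target known from resting cells, rose from 6.03 ± 0.35 to 17.6 ± 2.98 CPM. CCNO, called lower, held 24, 40 and 37 counts in the GM samples and 1, 1 and 2 counts in the DM samples. CDK14 and CDK15 were not listed by symbol.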
